A study of Mus musculus with 2 samples.

Results

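Retinal organoids are tissue aggregates that form early eye structures in culture from pluripotent stem cells. In the tables described here, 428 genes carried positions scored for N6-methyladenosine (m6A) on more than 1 transcript isoform. These genes were chosen by a rule on depth alone. A gene was a member when positions covered by at least 20 reads lay on 2 or more of its Ensembl transcripts in replicate 2, and its members are all such positions. The rule found 3089 positions on 981 transcripts, out of 16212 positions of that depth, 100 of them without a gene name, and 3919 named genes (10.9% of the genes and 19.1% of the positions). In replicate 1, the shallower library, it found 986 positions in 184 genes, out of 6463 positions, 55 of them without a gene name, and 2026 genes. Of these 184 genes, 171 were also members in replicate 2.

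Both libraries are wild-type (WT) Rx:GFP mouse organoids at day 6, grown for 6 days with AGN at 0.1 µM, and form 1 group with n = 2. The name Rx:GFP refers to a fluorescent reporter for Rx (now Rax), which marks the forming eye field. All organoids derive from that single line, and nothing in the labels states whether the libraries came from separate cultures. Poly(A) RNA was sequenced as native RNA with the RNA002 chemistry. There is no second group, so every comparison is between isoforms within a library or between the libraries.

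m6A is placed on messenger RNA as it is made, mainly by a complex around METTL3 and METTL14, in a short sequence context called DRACH. It is known to act through reader proteins on the splicing, decay and translation of the RNA. Isoforms of a gene differ in their promoter, exons or 3′ end, and share the sequence of the exons they have in common. A site in a shared exon is therefore present on each isoform, often at a different distance from the start.

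The tables give a fraction modified between 0 and 1 and a coverage in reads for each position. All positions lie on 4 motifs of 5 bases, written in DNA letters: AGACT, and GGAC followed by A, C or T. A number of reads beside a fraction is the coverage. The denominator of the fraction is not stated, so no read counts were derived from it and no test on reads was made. With 2 libraries, an exact paired permutation test cannot give a two-sided p below 0.5, and differences are therefore described by their size and by whether they recurred in the other library. Of 13 eye-field and retinal progenitor genes, 12 were listed in each library. Positions with at least 20 reads were found for 7 of the 13 genes in replicate 1 and for 10 in replicate 2. None of 5 pluripotency, 4 mesoderm and 4 endoderm genes was listed in either library, where a position needs at least 5 reads to appear.

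Sites of different isoforms were taken as equivalent when they had the same motif and when at least 2 of them, in the same order, were separated by one constant offset. The 3 isoforms of Brd2, a bromodomain protein that binds acetylated histones (chromosome 17, 34330997 to 34341608, coordinates as deposited), show how this works. Of their 24 member positions, only the 18 that were paired are given below, and likewise only paired positions of Id2. Equal motif, order and spacing were required for pairing, so the patterns illustrate the rule and do not test it.
ENSMUST00000025193.12: GGACA at position 3655, then AGACT 158 nt on, GGACC 47 nt on, GGACA 103 nt on, GGACA 6 nt on and AGACT 348 nt on.
ENSMUST00000114242.8: GGACA at position 3764, then AGACT 158 nt on, GGACC 47 nt on, GGACA 103 nt on, GGACA 6 nt on and AGACT 348 nt on.
ENSMUST00000154232.8: GGACA at position 3808, then AGACT 158 nt on, GGACC 47 nt on, GGACA 103 nt on, GGACA 6 nt on and AGACT 348 nt on.
Id2, which encodes an inhibitor of basic helix-loop-helix transcription factors (chromosome 12, 25143798 to 25147139), gave a run of 8 sites with the same order on 2 isoforms, at an offset of -697 nt.
ENSMUST00000221761.1: GGACT at position 1203, then AGACT 67 nt on, GGACC 43 nt on, GGACT 71 nt on, AGACT 25 nt on, AGACT 117 nt on, GGACC 41 nt on and GGACT 120 nt on.
ENSMUST00000020974.6: GGACT at position 506, then AGACT 67 nt on, GGACC 43 nt on, GGACT 71 nt on, AGACT 25 nt on, AGACT 117 nt on, GGACC 41 nt on and GGACT 120 nt on.

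In replicate 2 the rule gave 1042 pairs of equivalent sites in 217 genes and 347 pairs of isoforms. The pairs comprised 1611 of the member positions (52.2%) and joined into 738 sites, of which 640 were seen on 2 isoforms, 72 on 3, 17 on 4, 8 on 5 and 1 on 7. Pairs of a gene with more than 2 isoforms share positions and are not independent. Of the 352 runs of constant offset, 178 held 2 pairs and 174 held 3 or more, up to 11. The offset was 110 nt in the median (interquartile range 44 to 219 nt) and reached 3524 nt. Replicate 1, paired on its own positions, gave 256 pairs in 69 genes, and all 82 isoform pairs that were paired in both libraries had an offset in common. The other 211 member genes of replicate 2 had no pair. In 172 of them an isoform carried a single member position, for which a spacing cannot be checked.

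Member sites and the remaining sites are set side by side as a description. In replicate 2 the members' median fraction was 0.353 (interquartile range 0.154 to 0.688) and the median coverage 39 reads, against 0.344 (0.148 to 0.667) and 36 reads at the 13023 sites of genes with 1 such transcript. GGACA made up 36.6% of the members and 35.3% of the other sites, and its median fraction, 0.684 and 0.659, was the highest of the 4 motifs in each. In replicate 1 the median fraction was 0.345 at members and 0.357 at the others. There GGACC made up 27.9% of members against 23% of the others, and GGACT 19.9% against 23.7%. At the limit of the rule, 124 members with exactly 20 reads had a median fraction of 0.375, and 82 positions with 19 reads on the same transcripts had 0.374.

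Equivalent sites had similar fractions on different isoforms. For each pair the isoform with the higher summed coverage of its members in replicate 2 is called the deeper isoform and the other the shallower one. Pearson's r between the fractions of both isoforms was 0.939 in replicate 2, and Spearman's rho 0.921, over 1042 pairs. Over the 256 pairs of replicate 1, r was 0.951 and rho 0.938. These correlations are across sites that share a library and a motif, and are given as a description. The median difference, shallower minus deeper isoform, was 0 in replicate 2 and 0.0018 in replicate 1, and the SD of the differences was 0.111 and 0.0975. The fraction was higher on the shallower isoform at 501 pairs of replicate 2, lower at 502 and equal at 39, and no pair had both the same fraction and the same coverage.

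**Figure D1:**
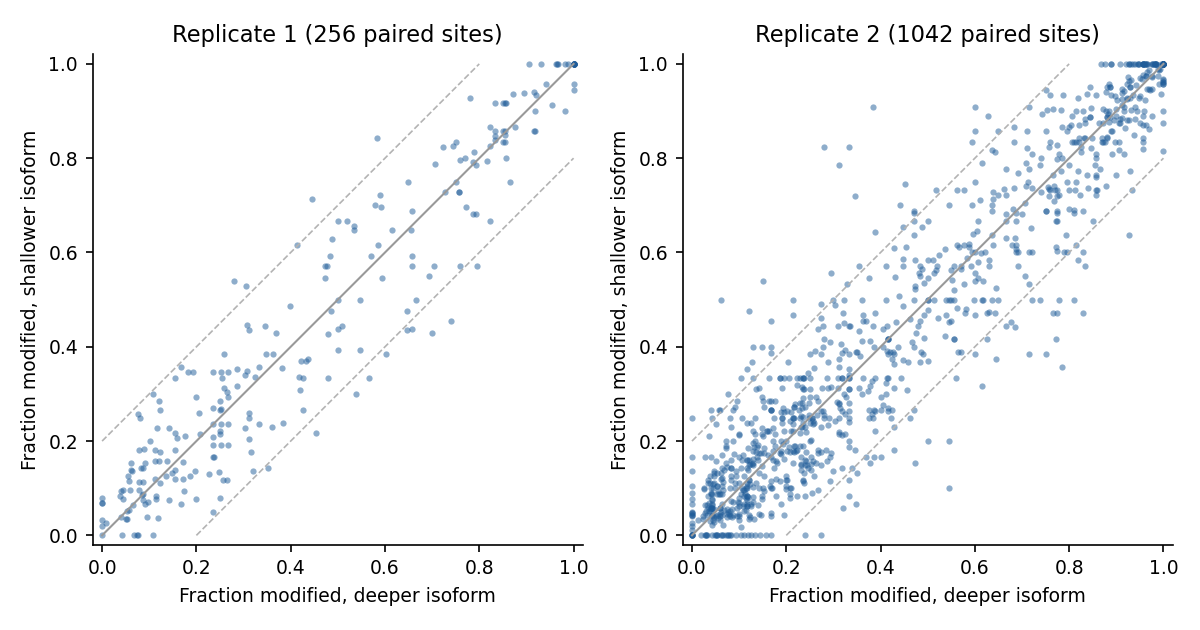
Fraction modified at each pair of equivalent sites, deeper isoform on the x axis and shallower isoform on the y axis, for 256 pairs of replicate 1 and 1042 pairs of replicate 2. Points follow the solid line of equality, and 15 and 83 of them lie outside the dashed lines that mark a difference of 0.2.

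A site's level within the transcript differed far more than its level between isoforms. Among 172 isoform pairs of replicate 2 with at least 3 paired sites, the fraction ranged over a median of 0.685 along the deeper isoform. The largest difference between isoforms at any site of the same pairs was 0.143 in the median, and the range along the transcript exceeded it in 161 of them. The site with the highest fraction was the same on both isoforms in 142 of the 172, and the site with the lowest in 135. In replicate 1 these numbers were 34 and 25 of 36 isoform pairs.

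Ctnnb1 encodes β-catenin, the effector of Wnt signalling and a component of cell junctions (chromosome 9), and had 12 paired sites on 2 isoforms. On the deeper isoform, ENSMUST00000007130.14, the fraction in replicate 2 was 0.963 at the most 5′ site (position 338, 380 reads), 0.0305 at position 1438 (459 reads), 0.881 at position 2341 (524 reads) and 0.162 at position 2711 (535 reads). On ENSMUST00000154356.7 the same sites had 0.87 (24 reads), 0 (24 reads), 0.842 (44 reads) and 0.171 (63 reads). These 4 sites, chosen after their values were seen, include the highest and the lowest, and kept their order on both isoforms. Sites nearer in level did not all do so, as position 937 had 0.294 and position 1758 had 0.311 on the deeper isoform but 0.409 and 0.214 on the shallower. In replicate 1, the site at position 2341 had 0.917 over 168 reads on the deeper isoform and 0.941 over 22 reads on the other, and the site at position 2711 had 0.147 over 175 reads and 0.133 over 27 reads.

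**Figure D2:**
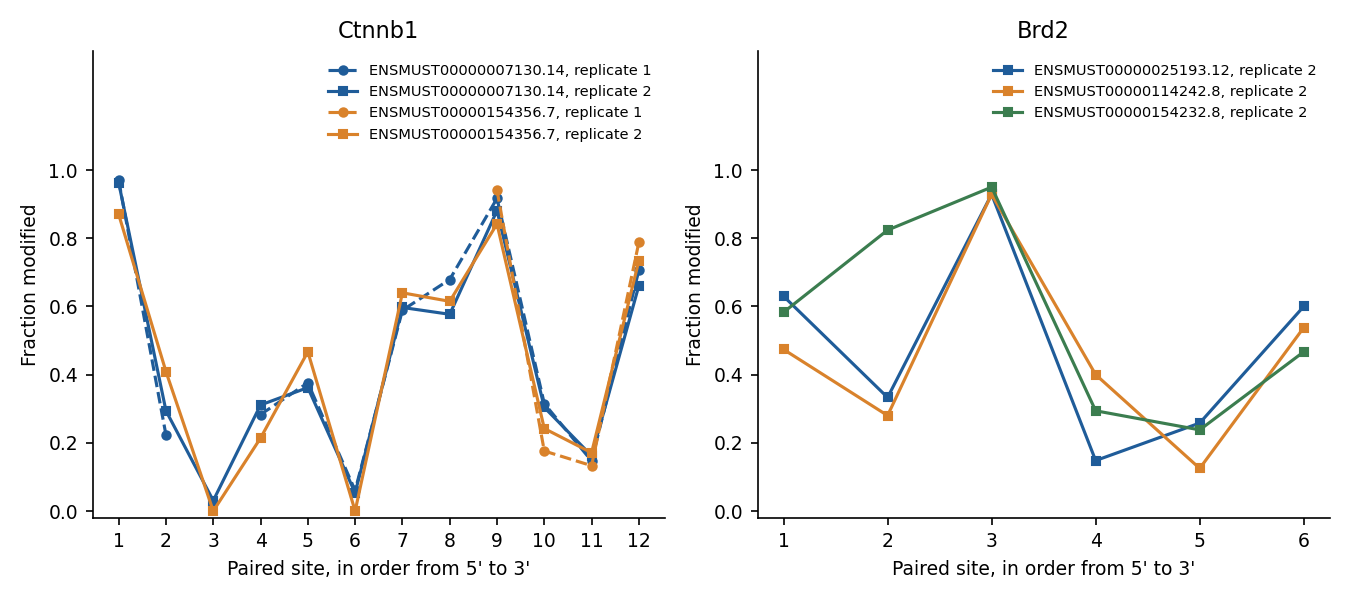
Fraction modified at paired sites in transcript order for 2 isoforms of Ctnnb1 (12 sites, solid lines replicate 2, dashed lines replicate 1, points with at least 20 reads) and 3 isoforms of Brd2 (6 sites, replicate 2). The isoforms of Brd2 part most at the second site, where one has 0.824 against 0.333 and 0.28, and from the fourth to the fifth site one rises from 0.148 to 0.258 while another falls from 0.4 to 0.125. Across its 18 pairs r between isoforms is 0.719, the lowest of the genes with the most pairs.

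The 8 sites of Id2 ranged widely in level. On the deeper isoform the first site had 0.918 (133 reads) and 0.928 (247 reads) in replicates 1 and 2, and on the shallower one 0.9 (35 reads) and 1 (68 reads). The last had 0.0088 (142 reads) and 0.0591 (274 reads) on the deeper isoform, and 0.027 (40 reads) and 0.0328 (73 reads) on the shallower. Between them the order was not always kept. In replicate 1 the sites at positions 1270 and 1384 had 0.7 and 0.414 on the deeper isoform of Id2, but 0.429 and 0.615 on the shallower, while in replicate 2 they had 0.679 and 0.433 against 0.615 and 0.452. Six3, a homeobox gene of the eye field and forebrain (chromosome 17, 85921036 to 85936730), was the only gene of the eye-field list among the members. Its 3 paired sites had 0.75, 0.556 and 0.0333 over 32 reads each on ENSMUST00000176081.2 in replicate 2. On ENSMUST00000175898.3 they had 0.688, 0.571 and 0.0833 over 25 reads each. In replicate 1 none of these positions of Six3 had more than 15 reads.

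The spread between isoforms was set against the spread between the libraries in classes of the coverage on the shallower side. The deeper side was not matched. When the shallower side had 20 to 49 reads, the root mean square difference was 0.12 between isoforms in replicate 2 (830 pairs) and 0.106 in replicate 1 (195 pairs). Between the libraries it was 0.112 at 648 member positions of that depth and 0.114 at all 3394 sites. With 100 or more reads it was 0.0446 (52 pairs) and 0.0471 (25 pairs) between isoforms, and 0.0457 at 235 members and 0.0491 at 741 sites between the libraries. Relative to a binomial draw from every read at the position, the difference between isoforms was 1.07 to 1.4 times as large over the depth classes, and that between the libraries 1.24 to 1.41 times. As not every covering read need enter the fraction, the binomial value is a lower limit where the reads of both sides are independent. Between isoforms this is not known, because how reads that fit more than 1 isoform were assigned is not stated.

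**Figure D3:**
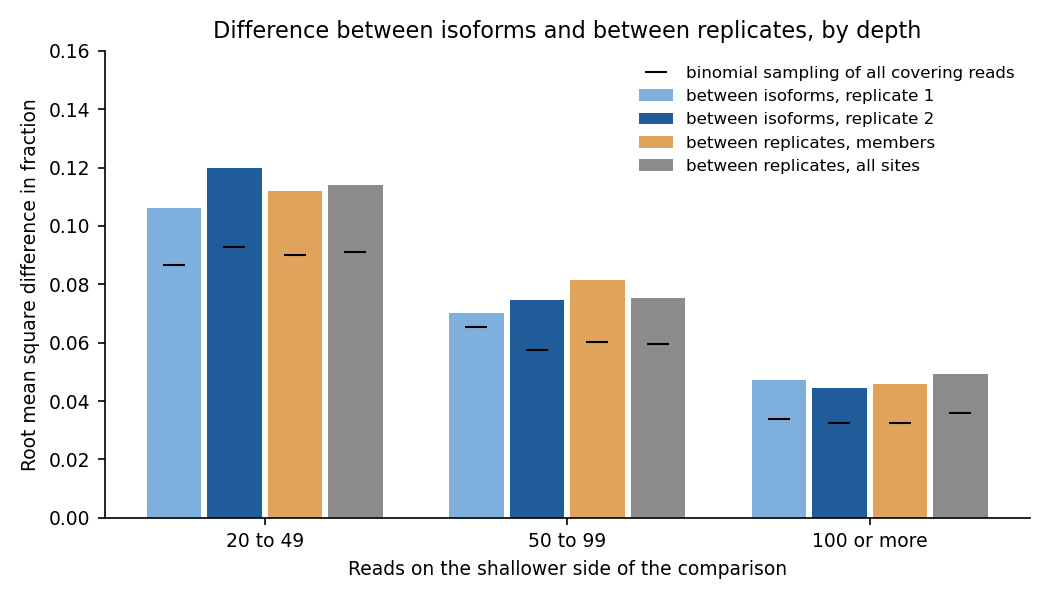
Root mean square difference in fraction modified (y axis) by the number of reads on the shallower side (x axis). Bars show isoforms within each replicate and the 2 replicates at members and at all sites, and black marks show a binomial draw from every read at the position. Within a depth class the bars differ little, from 0.106 to 0.12 at 20 to 49 reads.

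Pairs further apart were counted with a threshold of 0.2. In replicate 2, 83 of 1042 pairs (7.97%) exceeded it, 41 with the shallower isoform higher and 42 with it lower. In replicate 1 it was 15 of 256 (5.86%). Between the libraries 310 of all 5221 shared sites (5.94%) were that far apart, and 57 of 1133 member sites (5.03%). With 20 to 49 reads on the shallower side the shares were 9.64% of pairs in replicate 2 and 7.69% in replicate 1, against 7.87% of member sites and 8.54% of all sites between the libraries. Of the 83 pairs, 80 had fewer than 50 reads on one isoform, as did 830 of all 1042 pairs.

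At pairs deep enough in both libraries, no difference above 0.2 recurred. Both isoforms had at least 20 reads in both libraries at 228 pairs, in 76 genes and 108 isoform pairs. Across these pairs the difference between isoforms in replicate 1 had r = -5.82e-05 and rho = 0.0418 with that in replicate 2, and the sign was the same at 104 pairs, opposite at 110 and undefined at 14 where a difference was 0. A difference above 0.2 was seen at 10 of the pairs in replicate 1 and at 5 in replicate 2, and at 0 of the 228 (0%) in both, which would allow a share of up to 1.32% if the pairs were independent. As pairs of one gene share positions, that limit is too low. Above 0.1, 5 pairs differed the same way in both libraries (2.19%) and 8 the opposite way (3.51%). For 61 of the 83 pairs beyond 0.2 in replicate 2, both isoforms were listed in replicate 1 at any depth. The sign there was the same for 27 and opposite for 31, with 3 at 0. At this lower depth the difference was again above 0.2 for some, 11 the same way and 9 the opposite way. Only 5 of the 83 pairs had at least 20 reads on both isoforms in both libraries.

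The difference was also averaged over the sites of an isoform pair. In 28 isoform pairs with at least 3 sites of sufficient depth in both libraries, the mean difference between isoforms was at most 0.115 in replicate 1 and 0.114 in replicate 2, with the same sign in 9 of 28 (r = -0.336 across isoform pairs). With at least 50 reads throughout, 49 pairs in 20 genes remained, with r = -0.0107, the same sign at 26 and no difference above 0.2 in either library. With at least 100 reads, 22 pairs in 9 genes remained, with r = 0.329, the same sign at 11, and a largest mean difference over both libraries of 0.0824.

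The relative depth of the isoforms is given as a description only, since coverage chose these pairs and replicate 2 set which isoform is called deeper. The log2 ratio of coverage, shallower over deeper isoform, was correlated between the libraries with r = 0.972 (rho = 0.961) across the 228 pairs, and the same isoform was the deeper one at 206 of them. Summed over sites, the same isoform was deeper in 98 of 108 isoform pairs. In bulk RNA, fewer cells using an isoform and less of it per cell cannot be told apart. How reads that fit more than 1 isoform were assigned is not stated in the sources used here, and its part in the similarity of the isoforms was not tested.

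**Figure D4:**
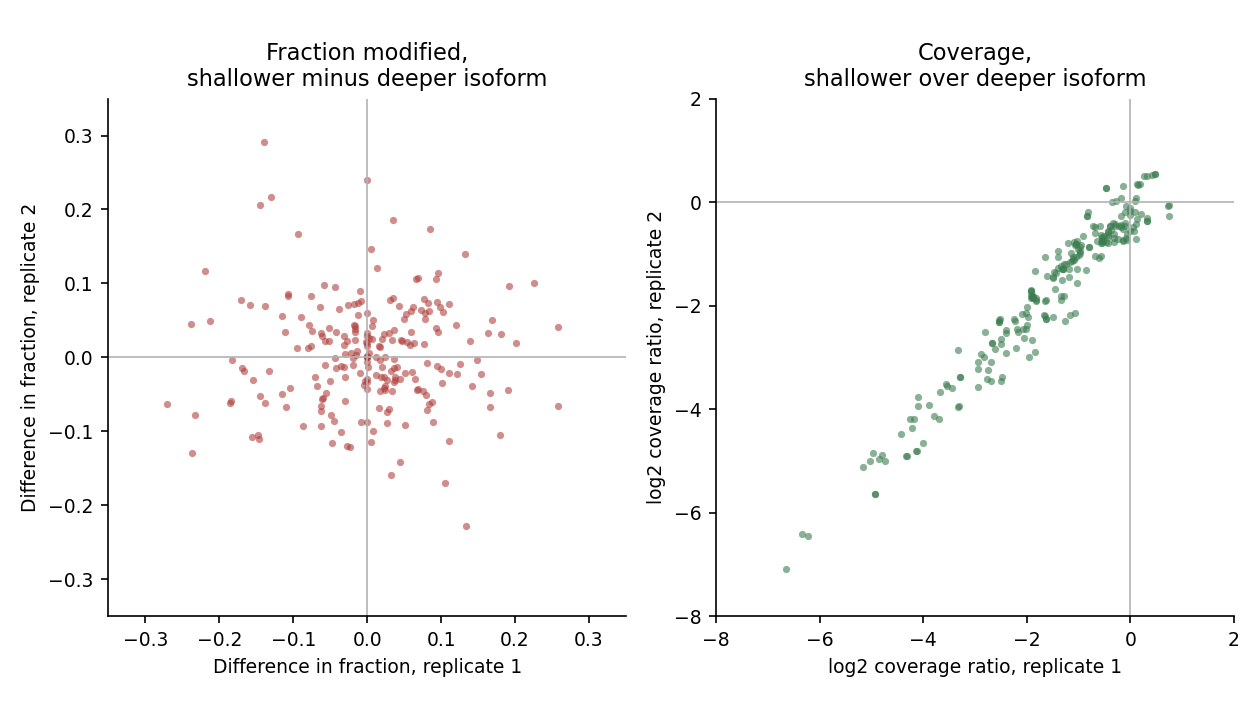
Each of 228 pairs with at least 20 reads on both isoforms in both replicates, replicate 1 on the x axis and replicate 2 on the y axis. The difference in fraction modified (left, shallower minus deeper isoform) has r = -5.82e-05 between replicates. The log2 ratio of coverage (right), the measure that chose the pairs, has r = 0.972 and is shown as a description.

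Each of the motifs had similar levels on both isoforms. In replicate 2 the median fraction was 0.741 on the deeper and 0.722 on the shallower isoform at 383 GGACA pairs, 0.222 on each at 237 GGACC pairs, 0.249 and 0.25 at 258 GGACT pairs, and 0.203 and 0.25 at 164 AGACT pairs. The root mean square difference was 0.106, 0.108, 0.102 and 0.138 in that order. The share beyond 0.2 was highest at AGACT, 10.4%, and lowest at GGACT, 6.59%. At the pairs with 20 reads on both isoforms in both libraries the sign was the same at 26 of 77 GGACA, 40 of 67 GGACC, 24 of 56 GGACT and 14 of 28 AGACT pairs, and the correlation of the differences ran from -0.269 at GGACA to 0.22 at GGACC.

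The pairs with the highest depth were in genes of the ribosome and of nuclear transport. Rpl41, a protein of the large ribosomal subunit (chromosome 10, 128383983 to 128385174), had members on 6 transcripts, 5 of which shared a GGACA and, 140 nt further on, a GGACT. At the GGACA the fraction in replicate 2 was 0.881, 0.845, 0.887, 0.887 and 0.95 over 3425, 1243, 703, 98 and 40 reads. At the GGACT it was 0.235, 0.251, 0.238, 0.333 and 0.31 over 3429, 1251, 715, 107 and 39 reads. In replicate 1 the GGACA had 0.833 to 0.917 and the GGACT 0.192 to 0.346 on these isoforms, so the pair of sites was separated by far more than the isoforms in each library.

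For the deepest isoforms of Rpl41 the GGACT differed by 0.0159 ± 0.00099 (SD, n = 2), shallower minus deeper. At position 438 of Rps2, of the small ribosomal subunit (chromosome 17, 24937090 to 24940903), the fraction was 0.535 over 2012 reads and 0.493 over 3540 reads on the deeper isoform. On the shallower it was 0.656 over 470 reads and 0.536 over 786 reads, a difference of 0.0821 ± 0.0545 (SD, n = 2). The other site of these Rps2 isoforms, at position 113, differed by 0.0369 in replicate 1 and 0.0367 in replicate 2, again higher on the shallower isoform. In replicate 1 another Rps2 isoform, ENSMUST00000146867.1, had 0.571 over 20 reads at that site, -0.187 from the deepest isoform, and 0.647 over 22 reads at the first, 0.112 from it, so the sign was not shared by all isoforms. Reads of ribosomal protein genes can be shared with near-identical pseudogene copies, so these values are uncertain.

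For the other 3 genes the value is for 1 site each. Rpl22 (chromosome 4) differed by -0.00115 ± 0.0433 at the GGACA at position 405 (SD, n = 2). Rpl22l1, its paralogue (chromosome 3), differed by -0.0057 ± 0.0102 at the GGACT at position 429 (SD, n = 2). Ran, the GTPase of nuclear transport (chromosome 5), differed by -0.00255 ± 0.0407 at the AGACT at position 1114 (SD, n = 2). Each of these differences was smaller than its spread between libraries. The GGACA of Ran at position 416 differed by 0.126 in replicate 1. Over 3 sites of Ran the mean difference was 0.0628 in replicate 1 and -0.0182 in replicate 2.

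Among pairs with at least 20 reads on both isoforms in both libraries, those with the largest mean difference of one sign are given as the upper end of what was seen. Of these, Map2k2, the kinase MEK2 (chromosome 10, 80941749 to 80969809), had the largest. Shallower pairs could exceed it, such as position 407 of Arpp19 with a mean of -0.232, where one position had 15 reads in replicate 1. The GGACC of Map2k2 at position 1530 of ENSMUST00000143517.7 had 0.455 over 29 reads and 0.406 over 48 reads in replicates 1 and 2. The equivalent position 1495 of ENSMUST00000105331.7 had 0.217 over 35 reads and 0.277 over 68 reads. The difference was -0.183 ± 0.076 (SD, n = 2), yet the GGACA at position 1502 of the same isoforms differed by 0.105 in replicate 1 and by -0.17 in replicate 2. ENSMUST00000105331.7 therefore lay below the other isoform at one site in both libraries, and crossed over at its neighbour. It is the shallower isoform by summed coverage of all its members, but had more reads at each of these sites.

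Sparc, a secreted glycoprotein that binds collagen (chromosome 11, 55285326 to 55314009), had a GGACC at position 594 with 0.265 over 72 reads and 0.318 over 161 reads on its deeper isoform. On the shallower the values were 0.118 over 20 reads and 0.213 over 64 reads, a difference of -0.126 ± 0.0302 (SD, n = 2). Its GGACA at position 1191 went the opposite way in the libraries, by 0.258 in replicate 1 and -0.0664 in replicate 2. Eif5a, a translation factor (chromosome 11, 69807540 to 69812784), had a difference of -0.132 ± 0.0344 at the GGACC at position 1148 (SD, n = 2), over 449 and 751 reads on the deeper isoform and 26 and 55 on the shallower.

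The other 7 genes with the largest mean differences had values between 0.121 and 0.167 in size. Id2 (-0.167 ± 0.147), the zinc-finger protein gene Zfp207 (-0.156 ± 0.11), the DNA glycosylase gene Tdg (-0.123 ± 0.0877) and Tead2, a TEAD transcription factor (-0.121 ± 0.0892), were lower on the shallower isoform (each SD, n = 2). The proteasome subunit gene Psmd8 (0.163 ± 0.0885, with 60 reads against 50 on the deeper isoform at this site in replicate 2), the histone chaperone gene Nap1l4 (0.15 ± 0.154) and the corepressor gene Ctbp1 (0.144 ± 0.0671) were higher (each SD, n = 2). As these pairs were picked for a large difference of one sign, no test was made on them. In Zfp207, a GGACA at position 1281 differed by 0.132 and 0.14 in the other direction from the GGACC at position 1458.

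The largest differences in replicate 2 alone lay on shallow positions. In Brd2, the AGACT that is second in the pattern above had 0.824 over 26 reads on ENSMUST00000154232.8, against 0.333 over 41 reads and 0.28 over 34 reads on the others. In replicate 1 it was listed on the latter isoforms, with 0.75 over 9 reads and 0.571 over 12 reads. The largest difference in Chtop, a nuclear RNA-binding protein gene (chromosome 3, 90406263 to 90416805), was at a GGACA with 0.909 over 21 reads on ENSMUST00000107343.7 against 0.385 over 29 reads on ENSMUST00000107344.7. The latter position had 1 over 12 reads in replicate 1. In Myh10, a non-muscle myosin heavy chain (chromosome 11, 68582385 to 68707458), an AGACT had 0.786 over 23 reads on one isoform and 0.312 over 42 and 0.357 over 22 reads on the others. In replicate 1 these isoforms had 0.25, 0.125 and 0.333 over 7 to 14 reads.

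Several genes offered the same site on many isoforms. Chtop had 5 isoforms, 22 members and 36 pairs, the most of any gene. On all 5, a GGACA was followed by an AGACT 91 nt on and a GGACT 96 nt further. In replicate 2 the GGACA had 0.167 to 0.4, the AGACT 0 to 0.167 and the GGACT 0.821 to 0.956, over 21 to 56 reads. The range of the GGACT lay above those of this GGACA and of the AGACT. A further GGACA, paired on 4 of the isoforms, had 0.385 to 0.909 and overlapped the range of the GGACT. Eif5a had members on 8 transcripts, and its GGACC was seen on 7 of them with 0.471 to 0.829 (SD between isoforms 0.116) over 30 to 751 reads. The isoform with the lowest value, ENSMUST00000108610.7, had 0.471 (42 reads) in replicate 2, but 0.929 (19 reads) in replicate 1, where it was the highest.

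Hnrnpk (chromosome 13, 58538956 to 58551157) and Hnrnpf (chromosome 6, 117877285 to 117902583), nuclear ribonucleoproteins that bind pre-mRNA, had 24 and 20 pairs. In Hnrnpk, 5 isoforms shared 2 GGACC sites 170 nt apart, with 0.041 to 0.267 and 0.13 to 0.333, and each had a GGACA with 0.9 to 0.965 further on. Between the second GGACC and the GGACA lay 447 nt on 2 isoforms and 387 nt on the other 3, so the GGACA was paired only among isoforms of equal spacing. The fraction at the GGACA was 0.93 and 0.965 on the former and 0.915, 0.943 and 0.9 on the latter, over 40 to 412 reads in replicate 2. In Hnrnpf, 5 isoforms had 0.139 to 0.253 at a shared GGACC over 37 to 183 reads.

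Other genes with many pairs were Hnrnpr (19 pairs, median absolute difference 0.0659), Brd2 (18, 0.108), Myh10 (17, 0.0667), the basic helix-loop-helix factor gene Tcf3 (16, 0.109), Arpp19, which encodes an inhibitor of the phosphatase PP2A (15, 0.0435), and Rpl22 (14, 0.0113). Hnrnpk had 0.0444, Hnrnpf 0.0543, Rpl41 0.0512, Eif5a 0.0875 and Chtop 0.114, and over all pairs it was 0.0584. Among these genes Rpl22 had the smallest and Chtop the largest, with coverage of 36 to 602 reads and 21 to 56 reads at their members.

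A change of offset with at least 2 paired sites on either side of it was seen in 5 isoform pairs, beside the change of spacing in Hnrnpk, which has 1 site on its far side. The sites upstream and downstream of a point were each in constant register, and the register moved by 36 nt in Nap1l4 and in Csnk1a1, a casein kinase, by 45 nt in Serbp1, an mRNA-binding protein gene, by 3 nt in Ctbp1 and by 1 nt in Ctnnb1. Of these, Serbp1 (chromosome 6) had the most reads on its shallower isoform. Upstream of the change its GGACA had 0.398 and 0.378 on the deeper isoform (134 and 312 reads) and 0.486 and 0.317 on the other (60 and 139 reads). Downstream its GGACT had 0.786 and 0.774 (138 and 322 reads) against 0.792 and 0.799 (102 and 218 reads). At the downstream site the isoforms were 0.0065 and 0.0249 apart in replicates 1 and 2, and at the upstream site the sign was opposite in the libraries.

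Gene lists matched by symbol are described by counts, with no test. Of 59 cytosolic ribosomal protein genes with a site of 20 reads in replicate 2, 30 were members, and of 86 hnRNP, SR and spliceosome genes, 36. The corresponding share of all genes was 10.9%. Of 51 translation factor genes 7 were members, of 56 oxidative phosphorylation genes 5, of 90 proteasome and ubiquitin genes 15, of 41 chaperone genes 6, of 46 histone, HMG and chromatin genes 13, of 37 actin and tubulin cytoskeleton genes 7 and of 63 cell cycle and replication genes 5. Of 24 RNA-binding regulators 7 were members, of 23 Id, Hes and eye-field regulators 2, and of 14 Wnt and cadherin-catenin genes 1.

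The median absolute difference between isoforms in replicate 2 was 0.0279 at 60 pairs of ribosomal protein genes and 0.0593 at 117 pairs of hnRNP, SR and spliceosome genes. None of the former and 10 of the latter exceeded 0.2, where the share over all pairs was 7.97%. The count was 6 of 40 translation factor pairs, 4 of 30 chromatin pairs, 4 of 61 proteasome and ubiquitin pairs, 1 of 11 chaperone pairs, 1 of 15 cytoskeleton pairs and 0 of 34 pairs of RNA-binding regulators. It was 0 in each of the other lists, of 2 to 12 pairs. Of the 60 ribosomal pairs, 20 were in Rpl41 and 14 in Rpl22, which include some of the deepest sites, and over all genes none of the 52 pairs with 100 or more reads exceeded 0.2. The lists were not matched for depth. The median absolute difference was 0.0252 at 7 pairs of oxidative phosphorylation genes, 0.0263 at 11 chaperone pairs, 0.0495 at 5 cell cycle and replication pairs and 0.0519 at 15 pairs of actin and tubulin cytoskeleton genes. It was 0.0581 at 11 pairs of Id2 and Six3 and 0.0573 at 12 pairs of Ctnnb1. It was 0.0865 at 40 pairs of translation factors, of which 31 were in Eif5a, 0.0709 at 61 proteasome and ubiquitin pairs, 0.0686 at 30 chromatin pairs and 0.0632 at 34 pairs of RNA-binding regulators. At pairs seen in both libraries the sign was the same for 23 of 40 in ribosomal protein genes and 10 of 25 in hnRNP, SR and spliceosome genes, against 104 of 228 over all such pairs.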

How the data were processed

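For 2 libraries of WT Rx:GFP organoids the authors deposited tables of transcript positions. The coverage is a deposited whole-number count of reads, and the fraction modified is a deposited fraction from 0 to 1, per the file headers. The caller, aligner and transcript reference are not given in the sources used here. The submitters' processing notes name mm10. RefSeq genes of GRCm38.p6 matched 425 member genes by symbol, of which 10 began less than 1000 bases from the deposited start, so the build of the printed coordinates is not settled. Only the plus tables were used.

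Members needed at least 20 reads. Sites were paired by motif, order and offset, with at least 2 pairs at one offset, best supported offset first, in Python 3.11.15 with pandas 2.3.3, numpy 2.4.6 and scipy 1.17.1. The pairing was tested on simulated isoforms. No test across genes was run. Lowest listed coverage was 5 reads, and median listed coverage 10 and 12 reads in replicates 1 and 2. The limit given for a count of 0 covers counting error only. Sensitivity alternatives were the coverage minimum, the support and number of offsets, the transcripts, genes and motif used, and the library.

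The rule for named genes took the 12 genes with the most pairs (1 is not reported here), the 10 genes with the largest mean difference of one sign in both replicates, the 5 pairs with the highest coverage on their shallowest position (1 pair per gene here and above), the 3 genes with the most transcripts (ties by summed coverage) and eye-field genes. Ctnnb1, Serbp1, Csnk1a1 and the further sites of named genes were chosen after their values were seen. Members and gene lists were chosen with earlier results of these data known. List patterns that caught unrelated gene names were narrowed by name, not by value.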

Additional observations from a re-analysis of the deposited data

How the results depend on the processing

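With a minimum of 5 reads there were 1971 member genes, 6722 pairs in 1165 genes, an SD of the differences of 0.216, 1818 pairs beyond 0.2 and r = 0.796 between isoforms. Of 1660 pairs listed in both libraries, 54 were then beyond 0.2 the same way and 54 the opposite way. With 50 reads there were 119 member genes and 194 pairs in 50 genes, with a median difference of 0.00425, an SD of 0.0649, 2 pairs beyond 0.2, r = 0.977 and 0 of 49 pairs beyond 0.2 in both. With at least 3 pairs at one offset, 686 pairs in 129 genes remained. With the 2 deepest transcripts per gene the median difference was -0.002 and 50 of 713 pairs exceeded 0.2. With GGACA only there were 383 pairs, 31 of them beyond 0.2. A threshold of 0.1, chosen after seeing the data, gave 298 pairs in replicate 2 and 5 the same way in both replicates. No pair exceeded 0.2 the same way in both replicates with 50 reads, 3 pairs per offset, 1 pair at offset 0, 2 transcripts per gene, the best offset, GGACA only or without predicted gene names. With 1 pair at offset 0, 233 pairs were compared. The other settings compared no more than the 228 of the main result, where the count was already 0, so they add little to it.

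Without replicate 1 or 2, the results ran from 184 to 428 member genes, 256 to 1042 pairs, 69 to 217 genes with pairs, 0 to 0.0018 for the median, 0.0975 to 0.111 for the SD, 15 to 83 pairs beyond 0.2 and 0.939 to 0.951 for r. Of the 15 named pairs, 9 were kept with 3 pairs per offset and 5 had 50 reads throughout. No paired analysis was possible because the samples form 1 group, so that no replicate numbers pair samples across groups. Isoforms were compared within each library. At 20 to 49 reads on the shallower side 9.64% of pairs in replicate 2 were beyond 0.2, and with 100 or more reads 0 of 52 pairs.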

Other observations

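Listing was not complete along shared stretches. Inside the runs of constant offset in replicate 2, 676 member positions had a partner on the other isoform and 133 had none, so that 83.6% were paired. Of the 133, 6 were listed on the other isoform with fewer than 20 reads and 127 were not listed there at any depth, although flanking sites on that isoform had at least 20 reads. A position listed on one isoform and not on another was therefore not read as a difference between them.

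Among the 172 isoform pairs with at least 3 paired sites in replicate 2, the coverage of the shallower isoform relative to the deeper was higher at the most 3′ site than at the most 5′ site in 117 and lower in 46. The median ratio was 0.608 at the first paired site and 0.638 at the last, and the coverage of the deeper isoform at the last was 1.07 times that at the first in the median.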
